A study of Mus musculus with 12 samples.

Results

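The 10 genes described here, of 41457 in the deposited tables, encode the Bcl2 family proteins that set the threshold for death of a lymphocyte through its mitochondria. They were chosen by name: the anti-apoptotic Bcl2, Bcl2l1 (Bcl-xL), Mcl1, Bcl2a1b and Bcl2a1d (copies of A1), the BH3-only Bcl2l11 (Bim), Bbc3 (Puma) and Pmaip1 (Noxa), and the effectors Bax and Bak1. All 10 had reads in every library, between 99 for Bbc3 in its lowest library and 11238 for Mcl1 in its highest, and all 10 passed the filter on low counts in every comparison.

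The RNA came from regulatory T cells (Treg) of mouse spleen, in 12 libraries with 3 biological replicates for each combination of genotype and culture. CD18Foxp3 Treg lack CD18 (Itgb2), the common beta chain of the β2-integrins, because Cre under control of Foxp3 removes a floxed exon 3 from both alleles, and CD18wt Treg carry Foxp3Cre with intact Itgb2 alleles. Both genotypes, on the C57BL/6 background, carry a red fluorescent reporter that Cre switches on, by which the CD4+ Treg were sorted, and the mice's ages are not given in the sources used here. Every culture ran overnight in 5 U/ml IL-2, and the stimulated cultures also received 1 µg/ml anti-CD3 and 2 µg/ml anti-CD28. The comparisons ask which family transcripts move when both antibodies are added, and whether loss of CD18 changes their level or their response. No culture received anti-CD3 or anti-CD28 alone, so their parts cannot be told apart.

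Anti-apoptotic members hold Bax and Bak1 in check on the outer mitochondrial membrane. BH3-only proteins bind into a groove of the anti-apoptotic members through a short helix, the BH3 segment, and so release Bax and Bak1, which then open the membrane to cytochrome c. Treg depend on IL-2 and on Mcl1 for survival, Bim limits their number, and signals from CD28 are known to induce Bcl-xL in T cells. Much of the control of this family, above all of Mcl1 and the BH3-only proteins, acts on protein stability and binding, which RNA does not show.

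The BH3 core is the stretch these proteins have in common, so its coding bases are shown for the members in which a search of the annotated coding sequence found it a single time. The pattern searched was leucine, any 3 residues, glycine or alanine, and aspartate. Each line gives 36 coding bases of GRCm38 (transcripts of GENCODE M21), 5′ to 3′ on the gene's own strand, with the leucine codon and the glycine or alanine and aspartate codons in capitals.
Bcl2 (chr1:106712575-106712610, minus strand): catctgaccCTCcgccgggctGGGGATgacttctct
Bcl2l1 (chr2:152829697-152829732, minus strand): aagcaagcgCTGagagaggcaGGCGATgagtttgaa
Mcl1 (chr3:95659427-95659462, plus strand): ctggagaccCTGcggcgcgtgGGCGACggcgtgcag
Bcl2l11 (chr2:128147141-128147176, plus strand): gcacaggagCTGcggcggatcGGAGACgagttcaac
Bbc3 (chr7:16313764-16313799, plus strand): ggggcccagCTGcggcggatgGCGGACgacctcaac
Bax (chr7:45465997-45466032, minus strand): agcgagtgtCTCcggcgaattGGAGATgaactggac
Bak1 (chr17:27022531-27022566, minus strand): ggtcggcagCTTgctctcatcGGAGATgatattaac
The pattern begins at residue 94 of 236 in Bcl2, at residue 150 of 196 in Bcl2l11 and at residue 141 of 193 in Bbc3, whose line shows an alanine codon in capitals. The other 6 lines show glycine codons. Pmaip1 matched at 2 places and is not shown. These letters were not found in the coding sequences of Bcl2a1b and Bcl2a1d, which says nothing of the segment in a wider form.

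Bcl2a1b and Bcl2a1d needed a separate look, because they are near-identical copies on mouse chromosome 9 and the reads were 59 bases long. Their coding sequences, of 516 bases each, differ at 6 positions, which counted from 1 at the A of the start codon are G4T, T48C, A94C, G312A, C381G and T490A, with the base of Bcl2a1b first. The first 90 coding bases are shown with the differing bases in capitals, to show how far apart the bases lie that tell the copies apart.
Bcl2a1b (chr9:89199360-89199449, plus strand): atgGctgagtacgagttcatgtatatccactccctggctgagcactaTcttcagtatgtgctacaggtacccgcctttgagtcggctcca
Bcl2a1d (chr9:88731630-88731719, minus strand): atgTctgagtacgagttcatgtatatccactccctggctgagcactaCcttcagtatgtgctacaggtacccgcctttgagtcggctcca
Of the 458 windows of 59 bases in the coding part, 219 hold no difference between the copies. Of all words of that length in the annotated transcripts of Bcl2a1b, 75.4% also occur in a transcript of another gene, as do 74.8% of those of Bcl2a1d. In the libraries 21.4% to 26.9% of the exon reads of Bcl2a1b and 26.0% to 30.5% of those of Bcl2a1d had been placed uniquely, so the level of either copy rests mostly on reads that the authors' software divided among copies. The share was 72.0% to 84.0% for Bax, 92.2% to 94.4% for Bcl2, and 93.4% to 96.4% for Bak1, and every exon read of the other 5 members had been placed uniquely. Bcl2a1b also overlaps Gm29094 on its own strand, which had 7 to 165 exon reads per library. Bak1 overlaps Ggnbp1 on the opposite strand, which had 5 to 55 exon reads per library, and the sources do not say whether counting used the strand.

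The libraries held 10665174 to 19005482 exon reads. Itgb2 stood at 428 ± 39.2 TPM (SD, n = 3) in unstimulated CD18wt Treg against 240.1 ± 15.0 TPM in CD18Foxp3 Treg. After stimulation it stood at 329.9 ± 1.16 against 172 ± 36.7 TPM. The genotypes did not overlap in either culture, so each library matched the genotype of its label. Itgb2 RNA was lower but not absent in CD18Foxp3 Treg. TPM, the level scaled so that the transcripts of a library sum to 1000000, is a level per transcript length and can be compared between genes. The 6 Treg markers summed to 1336 to 1662 TPM in unstimulated and 2214 to 3678 TPM in stimulated libraries. Within this list the mean levels of Foxp3, Il2ra, Ctla4 and Ikzf2 were higher in stimulated Treg of either genotype, with Il2ra at 153 and 980 TPM in CD18wt Treg, whereas those of Cd4 (614 and 366 TPM) and Cd3e (369.5 and 265 TPM) were lower. The 4 B cell markers summed to 22.6 to 30.4 TPM in unstimulated and 8.75 to 19.8 TPM in stimulated libraries, and the 4 CD8 and NK cell markers to 25.3 to 35.7 and 12.6 to 25.8 TPM. The 4 myeloid markers summed to 1.58 to 15.8 TPM in unstimulated and 0.163 to 1.77 TPM in stimulated libraries, the 2 plasma cell markers to 1.09 to 4.85 and 1.61 to 3.38 TPM, and the 3 erythroid markers to 1.21 to 32.1 and 0.0 to 3.71 TPM. The sums of the B cell and the myeloid markers were lower in every stimulated library of either genotype. So were those of the CD8 and NK cell markers in CD18wt Treg and of the erythroid markers in CD18Foxp3 Treg. In unstimulated CD18wt Treg Cd79b, at a mean of 26.4 TPM, and Cd8b1, at 25.0 TPM, made up most of their sums. Not every gene went with its sum. Mean Cd8a was 0.071 and, stimulated, 0.504 TPM in CD18wt Treg. Cd14 was at 0 and, stimulated, at 0.12 to 0.33 TPM in CD18wt Treg, and at 0 to 0.22 and 0.23 to 0.87 TPM in CD18Foxp3 Treg. Ncr1, an NK cell receptor, was at 0 in all 12 libraries. The part of these cells in the stimulation values below was not tested. In bulk RNA, fewer cells of a type and less RNA per cell cannot be told apart.

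Mcl1 and Bcl2a1b were the most abundant members in unstimulated Treg, and Bcl2l1 and Pmaip1 the least. In unstimulated CD18wt Treg the mean levels ran from Mcl1 at 446 ± 45.1 TPM (SD, n = 3) and Bcl2a1b at 365 ± 31.4 TPM through Bax at 102 ± 8.68 and Bcl2a1d at 97.9 ± 13.6 TPM to Bak1 at 73.4 ± 2.04 and Bcl2 at 55.4 ± 3.22 TPM. Bbc3 at 35.0 ± 3.49, Bcl2l11 at 26.0 ± 4.13, Bcl2l1 at 21.2 ± 2.35 and Pmaip1 at 18.1 ± 6.22 TPM followed. Bax and Bcl2a1d overlapped in their libraries, as did Bcl2l11 with Bcl2l1 and Bcl2l1 with Pmaip1, and the other neighbours in this order did not. After stimulation the order of the anti-apoptotic members differed: in CD18wt Treg Bcl2l1, at 165 ± 9.21 TPM, stood above Bcl2, at 44.0 ± 17.8 TPM, and Mcl1, Bcl2a1b and Bax overlapped with their neighbours at the top, at 362 ± 53.7, 358 ± 9.81 and 339 ± 18.4 TPM. In stimulated CD18Foxp3 Treg Bcl2a1b led with 445 ± 46.6 TPM and did not overlap Mcl1 at 343 ± 23.8 TPM, while Bcl2l11 had the lowest mean, 10.3 ± 2.62 TPM, and overlapped Bbc3 at 23.2 ± 14.4 TPM.

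**Figure D1:**
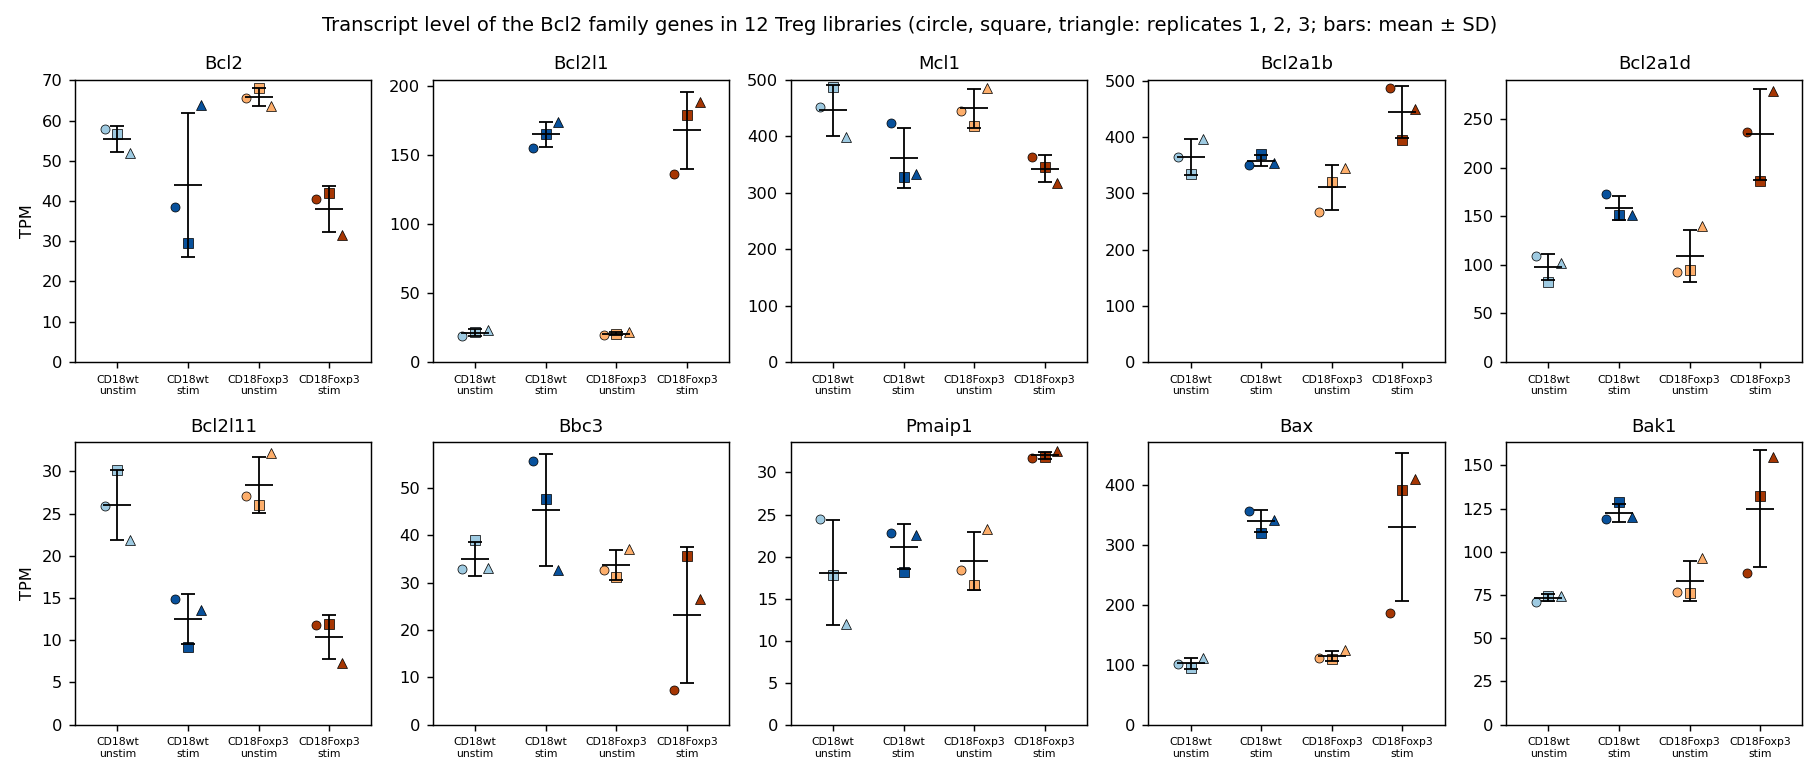
Level of each Bcl2 family gene in TPM (vertical axis, linear from 0) in the 12 libraries, by genotype and culture. Points are libraries, bars the mean and SD of 3. Bcl2l1 lies between 18.5 and 23.0 TPM in all 6 unstimulated libraries and between 136 and 188 TPM in all 6 stimulated ones, and 1 stimulated CD18Foxp3 library lies low for Bbc3, Bax and Bak1.

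Stimulation moved the same 5 members in both genotypes. Bcl2l1 and Bax rose, and Bcl2, Mcl1 and Bcl2l11 fell, so the anti-apoptotic members did not move together and neither did the pro-apoptotic ones. A gene was counted as changed where edgeR's quasi-likelihood test gave an adjusted p, over all genes tested, no higher than 0.01 and the fold was no less than 1.5. In CD18wt Treg 2 of the 10 members rose, beside 18.7% of all genes tested, and 3 fell, beside 14.9%. In CD18Foxp3 Treg 2 members rose, beside 20.9% of all genes, and 3 fell, beside 17.6%, so counts of this size stood near the background. The median log2 fold change of the 10 members was -0.10 in CD18wt and 0.19 in CD18Foxp3 Treg, beside 0.02 and 0.01 over all genes tested.

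The scale matters for these directions. The edgeR fit used TMM factors, which set most genes near 0. On library totals alone the median gene stood 0.22 (CD18wt) and 0.19 (CD18Foxp3) higher on the log2 scale in stimulated Treg, and on log2(TPM + 1) 0.38 and 0.33 higher. The share of changed genes that were higher was 55.7% in CD18wt and 54.3% in CD18Foxp3 Treg with TMM, 70.4% and 66.5% with library totals, and 81.3% and 76.6% on TPM. The folds below are therefore relative to most genes, and a fold from TMM is lower than the ratio of the TPM values beside it.

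Bcl2l1, which encodes Bcl-xL, had the largest change of the 10 members in both genotypes. It stood at 18.5, 21.9 and 23.0 TPM in unstimulated and 155, 165 and 174 TPM in stimulated CD18wt Treg. In CD18Foxp3 Treg the values were 19.3, 20.5 and 21.8 TPM without and 136, 179 and 188 TPM with stimulation. Every stimulated library was more than 100 TPM above every unstimulated one. The log2 fold change was 2.56 ± 0.149 (SE, adjusted p = 1.04e-07, edgeR) in CD18wt and 2.66 ± 0.137 (adjusted p = 1.85e-06) in CD18Foxp3 Treg, folds of 5.90 and 6.33. In absolute size it exceeded the change of 95.1% and 94.9% of all genes tested. Its change remained past the test in every alternative and with any library left out.

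Bcl2, the founding anti-apoptotic member, was lower in most stimulated libraries. In CD18wt Treg it went from 57.9, 56.6 and 51.8 TPM to 38.4, 29.6 and 63.9 TPM, so the third stimulated library lay above all unstimulated ones. In CD18Foxp3 Treg it went from 65.7, 68.0 and 63.7 TPM to 40.5, 41.9 and 31.5 TPM, with no overlap. The log2 fold change was -0.75 ± 0.202 (adjusted p = 0.00855, edgeR) in CD18wt and -1.16 ± 0.132 (adjusted p = 8.45e-05) in CD18Foxp3 Treg. The fall in CD18wt Treg was lost with any single library left out other than stimulated replicate 3 (adjusted p 0.0215 to 0.0316). Without that replicate it was -1.09 (adjusted p = 4.94e-05). It was also lost with library totals (-0.55, adjusted p = 0.0587) and with limma on log2(TPM + 1) (-0.40, adjusted p = 0.195), whereas in CD18Foxp3 Treg the fall was past the test under all of these.

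Mcl1, a short-lived anti-apoptotic protein, fell by a similar amount in both genotypes but stayed among the 3 most abundant members. It stood at 453, 488 and 398 TPM in unstimulated and 424, 328 and 333 TPM in stimulated CD18wt Treg. In CD18Foxp3 Treg the values were 446, 418 and 486 TPM and 364, 346 and 317 TPM. The groups overlapped in CD18wt Treg, through stimulated replicate 1 and unstimulated replicate 3, and did not in CD18Foxp3 Treg. The log2 fold change was -0.70 ± 0.141 (adjusted p = 0.00111, edgeR) in CD18wt and -0.76 ± 0.106 (adjusted p = 3e-04) in CD18Foxp3 Treg. With library totals it was -0.51 and -0.58 and no longer reached the fold, and on log2(TPM + 1) in limma it was -0.31 (adjusted p = 0.0794) and -0.39 (adjusted p = 0.0127).

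The A1 copies did not pass the test in either genotype. Bcl2a1b stood at 364, 334 and 397 TPM in unstimulated and 351, 369 and 355 TPM in stimulated CD18wt Treg, where the groups overlapped, and at 268, 319.8 and 345 TPM against 488, 396 and 450.0 TPM in CD18Foxp3 Treg, where they did not. The log2 fold changes were -0.43 ± 0.140 (adjusted p = 0.0225, edgeR) and 0.16 ± 0.136 (adjusted p = 0.352). With uniquely placed reads alone they were -0.29 and 0.06. Bcl2a1d stood at 109, 82.7 and 102 TPM against 173, 151 and 152 TPM in CD18wt and at 92.4, 95.1 and 140.5 TPM against 237, 187 and 279 TPM in CD18Foxp3 Treg, higher in every stimulated library of either genotype. Its log2 fold change was 0.30 ± 0.161 (adjusted p = 0.147) in CD18wt and 0.74 ± 0.197 (adjusted p = 0.0101) in CD18Foxp3 Treg, just outside the threshold. It passed with DESeq2 (0.73, adjusted p = 0.00168), on library totals (0.92, adjusted p = 0.00368), without a filter (0.76, adjusted p = 3.56e-06), with all 12 libraries in 1 fit (0.74, adjusted p = 0.00278) and with the replicate number as a block (0.75, adjusted p = 0.000631). It also passed without unstimulated CD18Foxp3 replicate 3 (0.94, adjusted p = 0.00562) or without stimulated replicate 2 (0.90, adjusted p = 0.00502). On log2(TPM + 1) in limma it passed in both genotypes (0.70, adjusted p = 0.00166, and 1.10, adjusted p = 0.00278), while with uniquely placed reads it was 0.72 (adjusted p = 0.025) in CD18Foxp3 Treg and did not pass.

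Bcl2l11, the gene of Bim, had the largest fall of the 10 members. In CD18wt Treg it went from 25.9, 30.2 and 21.9 TPM to 14.9, 9.16 and 13.5 TPM. In CD18Foxp3 Treg it went from 27.1, 26.0 and 32.2 TPM to 11.8, 11.9 and 7.32 TPM. No stimulated library reached an unstimulated one in either genotype. The log2 fold change was -1.46 ± 0.163 (adjusted p = 1.09e-05, edgeR) in CD18wt and -1.82 ± 0.189 (adjusted p = 5.03e-05) in CD18Foxp3 Treg, past the test in every alternative and with any library left out. Only 6.79% of all genes tested had a lower value in CD18wt and 4.88% in CD18Foxp3 Treg.

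The other BH3-only genes, Bbc3 and Pmaip1, which are known targets of p53, did not pass the test. Bbc3 stood at 33.0, 39.1 and 33.0 TPM in unstimulated and 55.8, 47.7 and 32.6 TPM in stimulated CD18wt Treg, a log2 fold change of -0.02 ± 0.205 (adjusted p = 0.946, edgeR). In CD18Foxp3 Treg it stood at 32.6, 31.2 and 37.2 TPM and, stimulated, at 7.36, 35.6 and 26.6 TPM, a log2 fold change of -0.92 ± 0.423 (adjusted p = 0.0913). Stimulated CD18Foxp3 replicate 1 had 99 exon reads of Bbc3 where the other 11 libraries had 285 to 582, and without it the value was -0.52 (adjusted p = 0.00729, under the fold asked). With all 3 libraries but no filter on low counts it passed (-0.91, adjusted p = 1.46e-05). Pmaip1 stood at 24.4, 17.8 and 12.005 TPM against 22.8, 18.1 and 22.6 TPM in CD18wt Treg, where the groups overlapped, and at 18.4, 16.7 and 23.3 TPM against 31.7, 31.9 and 32.5 TPM in CD18Foxp3 Treg, where they did not. The log2 fold changes were -0.17 ± 0.228 (adjusted p = 0.557) and 0.36 ± 0.153 (adjusted p = 0.0724), and the second passed only on the TPM scale (limma on log2(TPM + 1), 0.70, adjusted p = 0.00314).

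Of the effectors, Bax rose and Bak1 did not pass the test. Bax stood at 101, 94.4 and 112 TPM in unstimulated and 356, 319.8 and 342 TPM in stimulated CD18wt Treg, a log2 fold change of 1.33 ± 0.136 (adjusted p = 5.45e-06, edgeR). In CD18Foxp3 Treg it stood at 111, 109 and 125 TPM and, stimulated, at 187, 391 and 409 TPM, a log2 fold change of 1.15 ± 0.245 (adjusted p = 0.00332). All stimulated libraries were above all unstimulated ones, with stimulated CD18Foxp3 replicate 1 the lowest of them. Without that replicate the change in CD18Foxp3 Treg was 1.40 (adjusted p = 4.07e-08), and with any other single library left out it missed the threshold (adjusted p 0.0124 to 0.0173). Bak1 stood at 71.1, 74.5 and 74.7 TPM against 119, 129 and 120.0 TPM in CD18wt and at 76.9, 76.2 and 96.2 TPM against 87.9, 132 and 155 TPM in CD18Foxp3 Treg, where stimulated replicate 1 lay within the unstimulated libraries. Its log2 fold changes were 0.34 ± 0.133 (adjusted p = 0.0474) and 0.22 ± 0.187 (adjusted p = 0.339), and on the TPM scale it passed in CD18wt Treg (limma on log2(TPM + 1), 0.73, adjusted p = 0.000269).

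**Figure D2:**
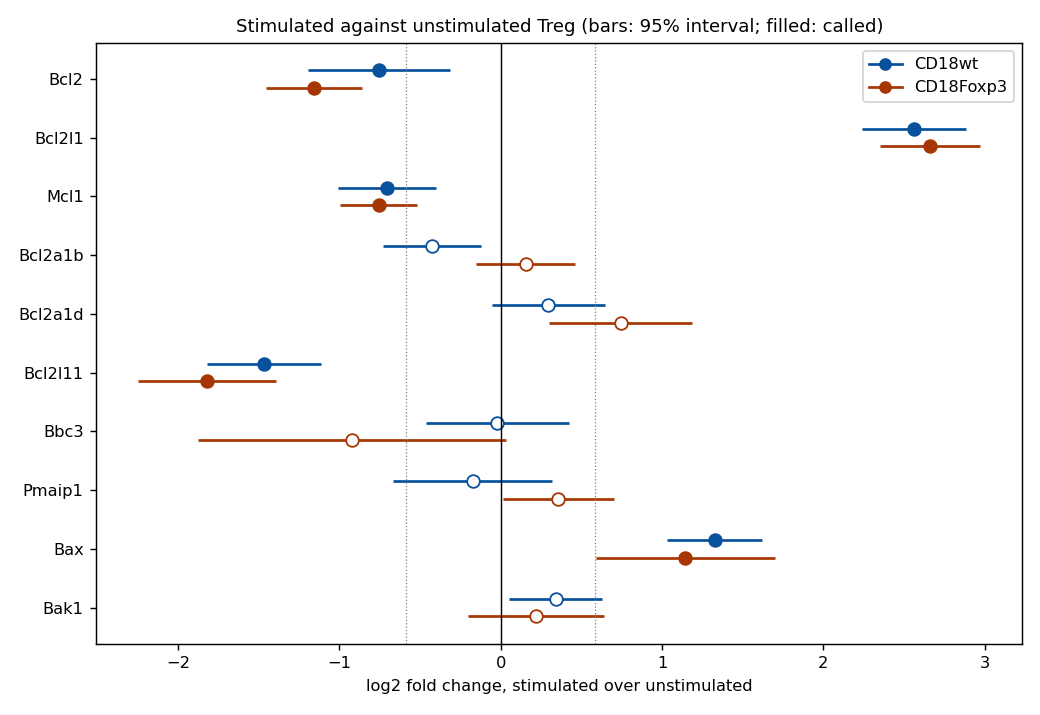
Log2 fold change of each member, stimulated over unstimulated (horizontal axis), in CD18wt and CD18Foxp3 Treg, with the 95% interval of edgeR's quasi-likelihood fit. Filled points passed the test, open ones did not, and dotted lines mark a fold of 1.5. The same 5 genes are filled in both genotypes, with Bcl2l1 at 2.56 and 2.66 and Bcl2l11 at -1.46 and -1.82.

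Stimulated CD18Foxp3 replicate 1 thus lay lowest of the 6 stimulated libraries for Bbc3, Bax and Bak1. Among other p53 targets, picked after their values were seen, Aen stood at 35.6 TPM there against 44.5 to 64.2 TPM in the other 5 and Phlda3 at 36.2 against 46.0 to 88.8 TPM. Ccng1, at 382 TPM against 243 to 304 TPM, and Tnfrsf10b, at 27.3 against 16.8 to 24.6 TPM, were highest there. Tradd and Htra2, of other lists and also picked after their values were seen, were low there too. They stood at 21.1 TPM against 41.8 to 53.1 TPM and at 22.8 against 36.0 to 47.3 TPM. The share of all genes that were lowest in this library was not counted. Its mean correlation with the other replicates of its group was 0.9699, beside 0.9762 and 0.9744 for those. In stimulated CD18wt Treg this correlation was 0.9683 to 0.9695.

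Transcript ratios within a library do not depend on the scaling between libraries, and they are given as a description. The ratio of Bcl2l1 to Bcl2 was 0.320, 0.388 and 0.445 in unstimulated CD18wt Treg and 4.04, 5.58 and 2.72 after stimulation. In CD18Foxp3 Treg it was 0.294, 0.302 and 0.342 and then 3.37, 4.28 and 5.98, so Bcl2 was the more abundant of the pair in every unstimulated library and Bcl2l1 in every stimulated one. The ratio of Bcl2 to Bcl2l11 was 1.87 to 2.36 in unstimulated and 2.58 to 4.72 in stimulated CD18wt Treg, and 1.98 to 2.62 and 3.44 to 4.30 in CD18Foxp3 Treg. The ratio of Mcl1 to Bcl2l11 was 16.2 to 18.2 and 24.6 to 35.9 in CD18wt, and 15.1 to 16.5 and 29.0 to 43.3 in CD18Foxp3 Treg. Although Bcl2 and Mcl1 fell, their transcripts thus stood higher against those of Bim in every stimulated library. The ratio of Bax to Bcl2 was 1.67 to 2.15 and 5.35 to 10.8 in CD18wt Treg, and 1.61 to 1.96 and 4.61 to 13.02 in CD18Foxp3 Treg. No stimulated library overlapped an unstimulated one in any of the 4 ratios within either genotype.

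**Figure D3:**
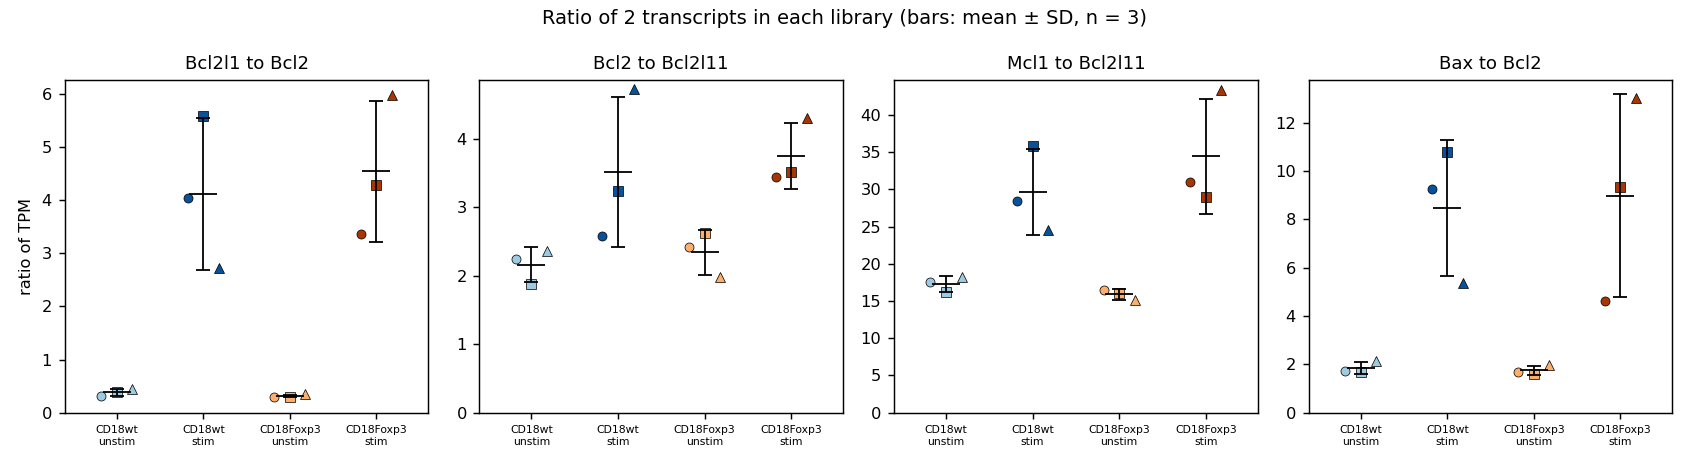
Ratio of the TPM of the genes named (vertical axis, linear from 0) in each of the 12 libraries. Points are libraries, bars the mean and SD of 3. The ratio of Bcl2l1 to Bcl2 is below 1 in all unstimulated libraries, at most 0.445, and above 1 in all stimulated ones, at least 2.72.

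Reads in introns come largely from RNA not yet spliced, and their share of a gene's reads was compared as well. Exon reads are part of that total, so the share is not independent of the exon values above. Intron reads of Mcl1, not scaled for depth, numbered 42 to 211 in unstimulated and 196 to 238 in stimulated CD18wt Treg. In CD18Foxp3 Treg they numbered 152 to 257 and 237 to 402, with overlap in both genotypes. The exon reads of Mcl1 fell, which by itself raises its share, and this share was higher in stimulated Treg. It was 2.11%, 1.51% and 0.754% in unstimulated and 4.09%, 2.95% and 3.35% in stimulated CD18wt Treg, and 2.31%, 1.91% and 1.45% against 4.85%, 3.82% and 4.10% in CD18Foxp3 Treg. The groups did not overlap in either genotype, and the exact two-sided permutation p was 0.1 in each, the smallest that 3 against 3 libraries allow. Mcl1 was the only member of 10 whose share was higher in every stimulated library, beside 20.3% of genes in CD18wt and 30.5% in CD18Foxp3 Treg. The share was lower in every stimulated library for 0 members in CD18wt Treg, beside 4.72% of genes, and for 3 in CD18Foxp3 Treg, beside 10.9%. These were Pmaip1 (13.1% ± 0.561 to 3.87% ± 0.329, SD, n = 3), Bcl2a1b (7.32% ± 1.67 to 3.34% ± 0.359) and Bcl2a1d (7.09% ± 2.47 to 2.11% ± 0.274), each with an exact permutation p of 0.1. The exon reads of the A1 copies were mostly not placed uniquely, so these copies are not independent members. In CD18wt Treg the share of Pmaip1 was 7.71% ± 5.03 and 4.21% ± 3.52, with overlap. For Bcl2, Bcl2l1, Bcl2l11, Bbc3, Bax and Bak1 the groups overlapped in both genotypes. The shares rest on few reads for some genes, 3 to 57 for Pmaip1 and 42 to 402 for Mcl1 in a library. The share of intron reads over all genes was 3.32% to 5.99% per library, lowest in unstimulated CD18wt replicate 3, which also had the lowest share of its group for every member other than Bcl2 and Bcl2l1. Without that library the unstimulated shares of Mcl1 in CD18wt Treg, 1.51% and 2.11%, still lay below the stimulated ones.

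**Figure D4:**
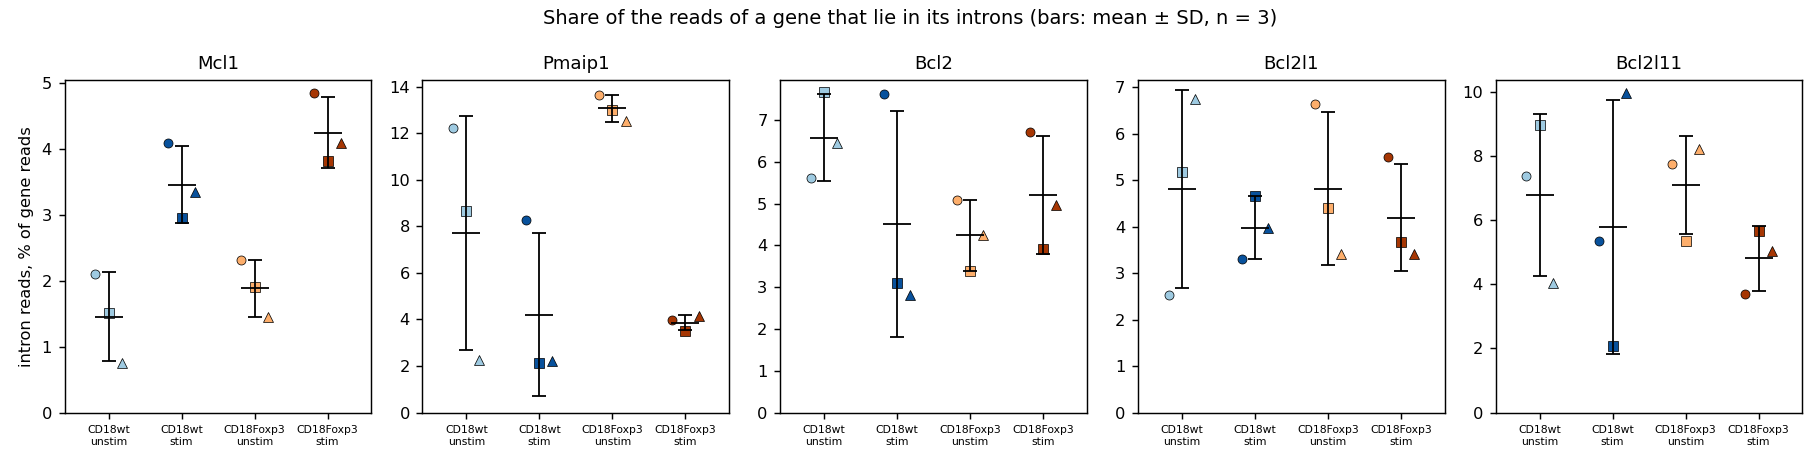
Share of a gene's reads that lie in its introns, in percent (vertical axis, linear from 0), for 5 members in the 12 libraries. Points are libraries, bars the mean and SD of 3. For Mcl1 the stimulated libraries, at 2.95% or more, lie above all unstimulated ones, at 2.31% or less, and for Pmaip1 in CD18Foxp3 Treg they lie below, at 3.50% to 4.13% against 12.5% to 13.6%.

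Loss of CD18 moved no member past the test. In unstimulated Treg 0 of 10 members changed between the genotypes, beside 0.135% of all genes (16 of 11829), and in stimulated Treg 0 of 10, beside 0% (0 of 11930). At an unadjusted p under 0.05 there were 583 genes in stimulated Treg, and DESeq2 called 22, none of them a member. The response to stimulation did not pass for any member either in the test of its difference between the genotypes (interaction, 0%, 0 of 12636 genes, 485 at an unadjusted p under 0.05, and 1 by DESeq2, which was no member). The members' values below are therefore given with their intervals.

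In unstimulated Treg the largest differences among the members were small. Bcl2 stood at 63.7 to 68.0 TPM in CD18Foxp3 against 51.8 to 57.9 TPM in CD18wt Treg, without overlap, a log2 fold change of 0.22 (95% interval 0.05 to 0.39, adjusted p = 0.335, edgeR). Bak1 did not overlap either, at 76.2 to 96.2 against 71.1 to 74.7 TPM (0.15, -0.07 to 0.37). These were 2 of the 10 members, beside 15.6% of all genes. Bcl2a1b had the lowest value, -0.26 (-0.51 to -0.01, adjusted p = 0.493), and with unique reads -0.21. The values of Bcl2l1 (-0.07, -0.33 to 0.20), Mcl1 (-0.01, -0.21 to 0.18) and Bcl2l11 (0.10, -0.14 to 0.34) were near 0, and the intervals of all 10 members lay inside a fold of 1.5 in either direction. The sign of the values of Bcl2l1, Mcl1, Pmaip1 (0.08) and Bcl2a1d (0.13) turned with 1 library left out.

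In stimulated Treg Pmaip1, Bcl2a1b and Bcl2a1d were higher in every CD18Foxp3 than in every CD18wt library, 3 of 10 members beside 9.43% of all genes. The A1 copies share much of their sequence and rest mostly on reads not placed uniquely, so they do not count as independent members here. Pmaip1, at 31.7 to 32.5 against 18.1 to 22.8 TPM, had a log2 fold change of 0.62 (95% interval 0.23 to 1.00, adjusted p = 0.709, edgeR). Bcl2a1d, at 187 to 279 against 151 to 173 TPM, had one of 0.58 (0.18 to 0.97, adjusted p = 0.800), and Bcl2a1b, at 396 to 488 against 351 to 369 TPM, one of 0.32 (-0.02 to 0.67, adjusted p = 0.998). With unique reads the value of Bcl2a1b was 0.13. That of Bcl2a1d was 0.50 to 0.585 over the 9 alternative fits with all libraries, unique reads among them. Bbc3 had the lowest value, -0.98 (-2.05 to 0.08, adjusted p = 0.998), and without stimulated CD18Foxp3 replicate 1 it was -0.56. The intervals of Bcl2l1 (0.03, -0.31 to 0.38), Mcl1 (-0.06, -0.40 to 0.27), Bax (-0.04, -0.57 to 0.49) and Bak1 (0.03, -0.40 to 0.46) lay inside a fold of 1.5, and those of the other 6 members did not.

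**Figure D5:**
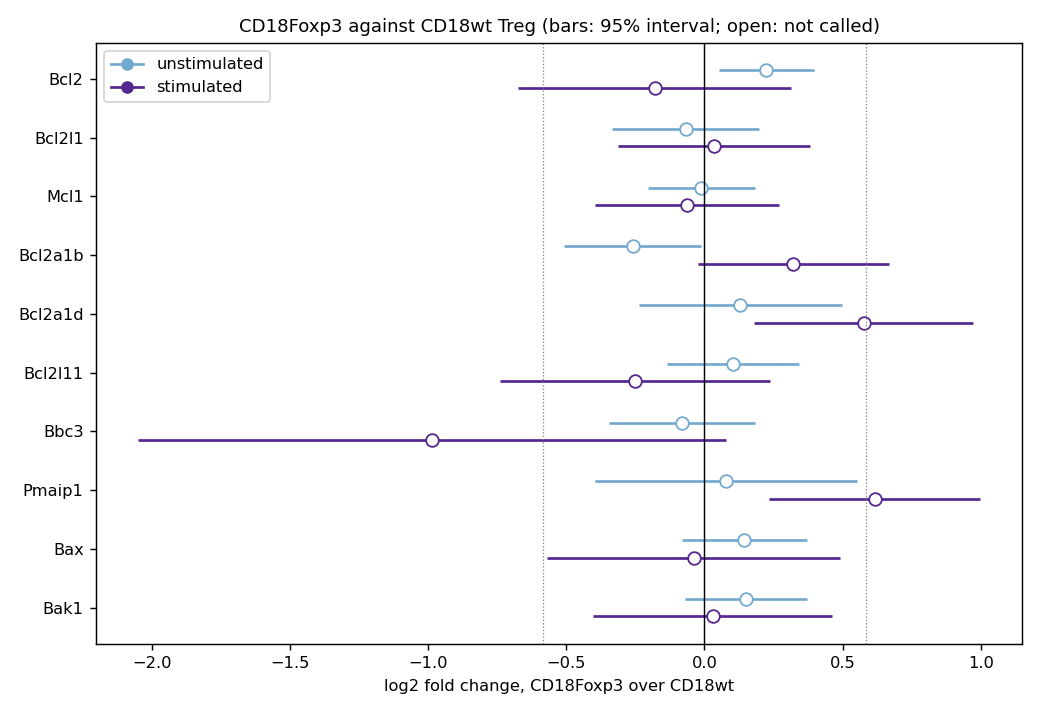
Log2 fold change of each member, CD18Foxp3 over CD18wt (horizontal axis), in unstimulated and stimulated Treg, with the 95% interval of edgeR's quasi-likelihood fit. All points are open because none passed the test, and dotted lines mark a fold of 1.5. The longest interval is that of Bbc3 in stimulated Treg, -2.05 to 0.08.

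The difference between the responses of the genotypes was largest for Bbc3 (-0.90, 95% interval -2.14 to 0.33), Bcl2a1b (0.58, 0.16 to 0.99) and Pmaip1 (0.53, -0.07 to 1.13), each with an adjusted p of 0.987 in edgeR. For Bcl2a1b it was 0.34 with uniquely placed reads. For Bcl2l1 it was 0.10 (-0.32 to 0.52) and for Mcl1 -0.06 (-0.42 to 0.31), with intervals inside a fold of 1.5. For Bcl2l11 it was -0.36 (-0.89 to 0.18) and for Bcl2 -0.41 (-0.96 to 0.14).

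Genes around the family are given by list. The shares in parentheses are those of all genes tested that were higher and lower. Of 16 other Bcl2 family genes 12 were tested in either stimulation comparison. In CD18wt Treg 1 rose and 2 fell (18.7% and 14.9% of all genes), and in CD18Foxp3 Treg 2 rose and 1 fell (20.9% and 17.6%). The median log2 fold change of the list was 0.24 and 0.06, beside 0.02 and 0.01 over all genes. Bnip3, a mitochondrial protein of mitophagy and cell death, rose in both (log2 fold change 1.15 ± 0.295 and 2.36 ± 0.231), and its relative Bnip3l fell in both (-1.34 ± 0.131 and -1.18 ± 0.143). Bcl2l2, which encodes the anti-apoptotic Bcl-w, rose in CD18Foxp3 Treg (1.46 ± 0.250) and stood at 0.81 ± 0.262 (adjusted p = 0.0209, edgeR) in CD18wt Treg.

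Of the 18 genes of the apoptosome and caspases, all tested, 7 rose and 0 fell in CD18wt Treg (18.7% and 14.9% of all genes), and 6 rose and 1 fell in CD18Foxp3 Treg (20.9% and 17.6%). Vdac1, a channel of the outer mitochondrial membrane, rose by 1.20 ± 0.143 and 1.22 ± 0.106 on the log2 scale. Cycs, cytochrome c, rose by 0.99 ± 0.179 and 1.14 ± 0.166, and Parp1, a DNA repair enzyme that caspases cleave, by 1.03 ± 0.136 and 0.94 ± 0.143. The gene that fell in CD18Foxp3 Treg was Casp9, the initiator caspase of the apoptosome (-0.98 ± 0.186), named after its value was seen. The median of the list was 0.34 in CD18wt and 0.35 in CD18Foxp3 Treg.

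Of the 8 inhibitors of caspases, 1 rose and 3 fell in CD18wt Treg (18.7% and 14.9% of all genes), and 2 rose and 3 fell in CD18Foxp3 Treg (20.9% and 17.6%), with medians of -0.38 and -0.31. Birc5 (survivin), which also acts in cell division, rose by 2.81 ± 0.307 and 2.50 ± 0.380. Naip5 (-2.07 ± 0.376 and -1.86 ± 0.230) and Naip6 (-2.07 ± 0.266 and -1.12 ± 0.296), sensors of bacterial flagellin that are close copies and may share reads, fell. The only other gene of the list that fell was Birc2 (-1.10 ± 0.181 and -0.85 ± 0.129), named after its value was seen. Most falls on this list were thus those of the flagellin sensors. Of the 10 death receptors and adaptors, 3 rose and 2 fell in CD18wt Treg and 3 rose and 1 fell in CD18Foxp3 Treg, beside the same shares, with medians of 0.07 and -0.12. Tnfrsf10b, the mouse TRAIL receptor, rose by 3.05 ± 0.215 and 3.12 ± 0.164. Mlkl and Ripk3, of necroptosis, rose by 2.71 ± 0.305 and 0.92 ± 0.153 in CD18wt and by 2.93 ± 0.306 and 0.86 ± 0.165 in CD18Foxp3 Treg.

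Of 12 genes of p53 and its targets 11 were tested, of which 6 rose and 1 fell in CD18wt Treg (18.7% and 14.9% of all genes) and 6 rose and 0 fell in CD18Foxp3 Treg (20.9% and 17.6%). The median was 1.71 and 1.86. Cdkn1a, the cell cycle inhibitor p21, rose by 5.76 ± 0.246 and 5.60 ± 0.223, and Phlda3 by 3.33 ± 0.291 and 2.42 ± 0.277, beside Tnfrsf10b above, which is on this list too. Trp53 itself, at 0.28 ± 0.139 (adjusted p = 0.117, edgeR) and 0.29 ± 0.0986 (adjusted p = 0.0312), did not pass. Bax, Bbc3 and Pmaip1 are known targets of p53 as well, and of these Bax alone passed the test.

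Of the 10 genes of the IL-2 receptor, STAT5 and FOXO, 3 rose and 4 fell in CD18wt Treg (18.7% and 14.9% of all genes) and 3 rose and 5 fell in CD18Foxp3 Treg (20.9% and 17.6%), with medians of -0.38 and -0.58. Il2ra, the alpha chain of the receptor, rose by 2.27 ± 0.161 and 3.13 ± 0.161, and Cish, a feedback inhibitor that STAT5 induces, by 1.80 ± 0.295 and 1.63 ± 0.111. Foxo1, whose family of transcription factors is known to activate Bcl2l11, fell (-1.39 ± 0.140 and -1.23 ± 0.129). Of the 7 genes that control turnover of the Mcl1 protein, Fbxw7, part of a ubiquitin ligase, alone passed, at 0.70 ± 0.170 and 0.79 ± 0.155, and the medians were 0.07 and 0.24. Between the genotypes no gene of these 7 lists passed the test, in unstimulated or stimulated Treg, nor did the difference in response.

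The genes whose levels ran most alike over the 12 libraries were sought among 8440 genes for 4 members, as a description. Since the libraries fall into unstimulated and stimulated ones, a high correlation says mainly that both genes differ between these. For Bcl2l1 they were Nhp2 (Pearson's r of log2(TPM + 1) 0.998), Noc4l (0.998) and Ddx39 (0.997), and Nhp2 went from 116 to 586 TPM in CD18wt and from 106 to 571 TPM in CD18Foxp3 Treg. For Bcl2l11 they were Slfn1 (0.985), Klf3 (0.974) and Ccndbp1 (0.973), genes lower in stimulated Treg, Slfn1 at 315 and 127 TPM in CD18wt and 343 and 107 TPM in CD18Foxp3 Treg. For Mcl1 they were Crbn (0.961), Ulk2 (0.952) and Slc25a24 (0.950), and for Bcl2, Lyst (0.931), Ikbke (0.930) and Pdk1 (0.930).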

How the data were processed

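The authors trimmed 59-base single reads of poly(A) libraries and aligned them to GRCm38 in CLC Genomics Workbench. For each gene the deposited values used here are read counts without normalization (exons, introns and whole gene, and for exons also those placed uniquely) and the authors' TPM, which are scaled to exon length and library. RPKM and the expression value column were not used here.

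Total exon read counts were tested with edgeR 4.0.16 in R 4.3.3 (filterByExpr with a minimum count of 10, TMM, robust quasi-likelihood F-test, Benjamini-Hochberg adjustment over all genes tested) on the libraries of the groups compared, and the interaction on all 12. Thresholds followed the study: adjusted p no higher than 0.01 and fold no less than 1.5. The SE is the log2 fold change divided by the root of F. TPM are given per library and as mean ± SD. Scripts were tested on simulated data. Tests of single values were exact two-sided permutation tests, for which 0.1 is the smallest p.

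The alternatives were DESeq2 1.42.0, RLE factors, library totals, no filter, unique exon reads in place of all, the TPM with 1 or 0.1 added on the log2 scale in limma 3.58.1, the replicate number as a block, all 12 libraries in 1 fit, other thresholds and each library left out. The depth was 10665174 to 19005482 exon reads. The members and the gene lists were chosen with earlier results of these data known. Named were all members, in each list the 3 genes with the largest absolute fold among those past the test in a stimulation comparison, and for 4 members the 3 genes of highest correlation among those with at least 5 TPM on average and 80% uniquely placed reads. Sequences were read from GENCODE M21 transcripts, whose gene coordinates matched the files for 9 of the 10 members.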

Additional observations from a re-analysis of the deposited data

How the results depend on the processing

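Every member had at least 99 exon reads per library, but the intron shares rest on as few as 0 reads for Bak1 and 3 for Pmaip1 and Bax. With 3 libraries a group, 1 library decided several values. In CD18wt Treg 5 members passed for stimulation, 4 to 5 with 1 library left out, and 3 with library totals, where the calls of Bcl2 and Mcl1 were lost. In CD18Foxp3 Treg 5 passed, 4 to 5 with 1 library left out, and 5 to 7 under the other alternatives, but not always the same ones. There Mcl1 passed in 6 of the 9 alternative fits with all libraries, and Bax in 1 of the 6 fits with a library left out. Bcl2a1d, not among the 5, passed in 7 of the 9 and in 2 of the 6. No member passed between the genotypes or for the interaction in any alternative. Over all genes, 16 differed between unstimulated genotypes, but 86 with DESeq2, 134 without a filter, 43 with the replicate block, 33 at an adjusted p of 0.05, 0 in limma and in the fit of all 12 libraries, and 0 to 44 with 1 library left out. Between stimulated genotypes 0 differed, but 22 with DESeq2, 61 without a filter, 2 with the block and 0 to 2 with 1 library left out, and for the interaction 0, but 1 with DESeq2 and 31 without a filter.

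Values near 0 changed sign. For stimulation in CD18wt Treg, Bbc3 was 0.17 with library totals, 0.34 in limma on log2(TPM + 1) and 0.34 on log2(TPM + 0.1), and Pmaip1 was 0.0162, 0.26 and 0.28. For the genotype in unstimulated Treg Mcl1 was 0.00765, 0.0140 and 0.0141, and for the genotype in stimulated Treg Bak1 was -0.0101 and -0.0105 in the limma fits. These alternatives leave out the TMM factors. With 1 library left out, the log2 values for stimulation in CD18wt Treg ranged from -0.17 to 0.19 for Bbc3 and from -0.36 to 0.0853 for Pmaip1. For the genotype in unstimulated Treg they ranged from -0.17 to 0.0325 for Bcl2l1, -0.0541 to 0.0380 for Mcl1, -0.11 to 0.34 for Pmaip1 and -0.0656 to 0.23 for Bcl2a1d. In stimulated Treg they ranged from -0.36 to 0.14 for Bcl2, -0.0619 to 0.15 for Bcl2l1, -0.15 to 0.0479 for Mcl1, -0.24 to 0.23 for Bax and -0.16 to 0.22 for Bak1. For the interaction they ranged from -0.00962 to 0.22 for Bcl2l1, -0.15 to 0.0446 for Mcl1, -0.38 to 0.0895 for Bax and -0.32 to 0.0650 for Bak1. The cause was not tested.

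The labels give the same replicate numbers in all groups but do not say that a number marks a shared animal, although numbers in the deposited files' names recur in the unstimulated and the stimulated culture of each replicate and may mark one. The correlation of same-numbered deviations from the group means between the cultures was 0.131, 0.0647 and 0.147 in CD18Foxp3 Treg, where each library correlated best with its own number and all different-numbered pairs were below 0, and 0.0936, -0.0201 and -0.0919 in CD18wt Treg, where this was not so. Deviations from a group mean sum to 0 for each gene, so positive same-numbered values pull the different-numbered ones below 0. The latter are therefore no separate sign of pairing. With the replicate block 5 members passed for stimulation in CD18wt Treg, and 6 in CD18Foxp3 Treg, where Bcl2a1d was added (0.75). The block changed no other call of a member.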
